A study of Homo sapiens with 16 samples.

Results

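The genes described here are the enzymes that make serine and pass its carbon to folate, with 1 carrier of serine across the cell membrane. They were chosen by name as 10 of the 60623 genes listed in the files, and 8 of the 10 were expressed highly enough to be tested. MUTZ-3, a human acute myeloid leukemia line in which an inversion of chromosome 3 drives *EVI1*, was sequenced by RNA-Seq in 16 libraries, 1 per condition. In the first experiment cells were left untreated at 0 h or were kept for 12, 24 or 48 h with the vehicle DMSO or with a PARP inhibitor (PARPi), either olaparib at 10 µM or talazoparib at 1 µM. In the second experiment cells carried a lentiviral pLKO.1 vector with a non-targeting control (NTC), shEVI1-2531 or shEVI1-2532, were selected with puromycin and were harvested at day 3 or day 6. All of these cells were grown with GM-CSF and with medium conditioned by the bladder line 5637. The set was drawn up with the inhibitor-to-DMSO and shEVI1-to-NTC values of these libraries in view, so its members' values in those contrasts, counts of calls by the fits included, are given as a description and support nothing.

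In the serine pathway, PHGDH, PSAT1 and PSPH convert an intermediate of glycolysis into serine in sequence. The enzymes SHMT1 in the cytosol and SHMT2 in mitochondria split serine into glycine and a one-carbon unit carried by folate. In mitochondria MTHFD2 oxidizes that unit, MTHFD1L releases it as formate and ALDH1L2 as carbon dioxide, and in the cytosol MTHFD1 takes up formate for the synthesis of purines and thymidylate. Proliferating leukemia cells draw on this route, and the transcription factor ATF4 is a known inducer of several of its genes.

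Sequencing depth lay between 55999673 and 72681943 counted reads in the inhibitor experiment and between 95523038 and 120716213 in the knockdown experiment. Levels are CPM, read counts scaled by library total and TMM factor. Scaled by library total alone, 3 counts in a library corresponded to 0.0249 to 0.0536 CPM. *EVI1*, listed as *MECOM*, was at 40.6 CPM with NTC at day 3, at 13.2 with shEVI1-2531 and at 5.14 with shEVI1-2532. At day 6 *MECOM* was at 37.2, 17.5 and 4.31 CPM in the same order. The leukemia markers *PTPRC*, *CD33*, *SPI1*, *MPO* and *CEBPA* were all expressed in all 16 libraries, while the summed level of *EPCAM*, *KRT5*, *CDH1* and *TP63*, markers of an epithelial line such as 5637, was at most 0.063 CPM in any library, and *KRT5* was at 0 counts in every library. In such bulk libraries, fewer cells that express a gene and less RNA per cell cannot be told apart.

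The members lie on several chromosomes in the GRCh38 coordinates of the files. *PHGDH* spans 119648411 to 119744226 on the plus strand of chromosome 1, and *PSAT1* spans 78297125 to 78330093 on the plus strand of chromosome 9. *PSPH*, on chromosome 7, spans 56011051 to 56051604 on the minus strand. Among the folate enzymes, *SHMT1* spans 18327860 to 18363563 on chromosome 17 (minus strand), *SHMT2* spans 57229573 to 57234935 on chromosome 12 (plus strand), and *MTHFD1* spans 64388031 to 64463457 on chromosome 14 (plus strand). *MTHFD1L* is on the plus strand of chromosome 6 from 150865549 to 151101887 and *ALDH1L2* spans 105019784 to 105107643 on chromosome 12 (minus strand). Both remaining genes are on the plus strand of chromosome 2, *SLC1A4* from 64988477 to 65023865 and *MTHFD2* from 74198610 to 74217565.

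Start-site windows were taken from RefSeq (GRCh38.p14) and were found for 7 of the 10 members, in 11 windows of 250 bases before and 50 bases from the start. They are shown because the members moved unequally and ATF4 is a known regulator of this pathway. Each window was searched on both strands for TGATGNAA, a form of the C/EBP-ATF response element to which ATF4 dimers bind, and for CACGTG, the E-box bound by MYC and MAX. TGATGNAA occurred in 3.62% and CACGTG in 7.26% of all 35116 windows of this length. Among the members TGATGNAA occurred in *MTHFD1L* and *SLC1A4* and CACGTG in *MTHFD1* and *MTHFD1L*, and the 2 motifs did not overlap each other. In the sequences that follow, written from 5′ to 3′ on the strand of the gene, capitals mark these motifs, and stretches annotated as exons of the gene in GENCODE 29 were left out beyond 30 bases.
PHGDH, chr1:119711684-119711714: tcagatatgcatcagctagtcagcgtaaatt
PSAT1, chr9:78296875-78297124: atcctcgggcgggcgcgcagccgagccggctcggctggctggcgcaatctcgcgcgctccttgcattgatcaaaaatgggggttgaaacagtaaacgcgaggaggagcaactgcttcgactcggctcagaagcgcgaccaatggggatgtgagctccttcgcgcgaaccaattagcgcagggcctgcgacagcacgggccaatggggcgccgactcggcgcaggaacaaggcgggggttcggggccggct
SHMT1, chr17:18363564-18363800: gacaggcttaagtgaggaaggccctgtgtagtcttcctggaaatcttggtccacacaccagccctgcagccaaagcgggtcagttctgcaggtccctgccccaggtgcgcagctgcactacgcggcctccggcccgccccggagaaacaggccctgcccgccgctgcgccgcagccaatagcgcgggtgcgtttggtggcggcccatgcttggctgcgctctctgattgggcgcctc
MTHFD1, chr14:64388326-64388355: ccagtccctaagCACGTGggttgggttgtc
MTHFD1L, chr6:150866320-150866349: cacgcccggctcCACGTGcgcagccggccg
MTHFD1L, chr6:150866346-150866375: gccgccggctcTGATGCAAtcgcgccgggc
MTHFD2, chr2:74198365-74198561: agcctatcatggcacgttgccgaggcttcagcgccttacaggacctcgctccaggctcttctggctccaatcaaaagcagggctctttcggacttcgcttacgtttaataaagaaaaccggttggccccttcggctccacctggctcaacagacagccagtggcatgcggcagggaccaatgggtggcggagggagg
SLC1A4, chr2:64989381-64989410: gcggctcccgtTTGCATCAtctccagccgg
The *PHGDH* window held neither motif, and only 31 of its bases before the start lie outside annotated exons of the gene. In *MTHFD1* the E-box began 15 bases before the start. In the first *MTHFD1L* window the E-box began 1 base before the start and TGATGNAA at position 25 after it, and the same sites lie in 2 more of its 4 windows. At *SLC1A4* the element, read on the other strand, began 7 bases before the second listed start. A match of letters is a description of the window, and no binding was measured in these libraries.

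To compare the members with each other, CPM was divided by the length of all annotated exons of each gene in kilobases. In untreated cells the mitochondrial enzymes *SHMT2* and *MTHFD2* were highest, at 59.1 and 54.7 CPM per kb. *MTHFD1* and *MTHFD1L* followed at 24.99 and 22.7, then *PSPH* and *PHGDH* at 12.4 and 12.2, and *SHMT1* and *SLC1A4* were lowest of the expressed members at 7.21 and 5.62. With 1 library per condition, the spread between cultures is not known, and neighbours in this order such as *PSPH* and *PHGDH* changed places between control libraries. In the DMSO 48 h library *MTHFD2* was above *SHMT2*, at 73.6 against 64.7 CPM per kb. In the NTC day 6 library *PHGDH* came next after *SHMT2* and *MTHFD2*, at 20.4. In the talazoparib 48 h library *PHGDH* was last of the expressed members at 0.253 CPM per kb, below *SHMT1* at 1.40. These values use the union of all exons and not the isoform in use, which matters for *PHGDH*, whose annotated exons add up to 9217 bases.

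The member that differed most from its controls was *PHGDH*, the first and committed enzyme of serine synthesis. In the untreated library it stood at 112.5 CPM, and under DMSO at 86.4 CPM at 12 h, 68.0 at 24 h and 192.6 at 48 h. Under olaparib it was at 75.8, 26.5 and 9.67 CPM at the same hours. Under talazoparib it was at 83.5, 20.8 and 2.33 CPM. At 12 h the inhibitor libraries lay within the range of the untreated and DMSO libraries, and at 24 and 48 h all 4 lay below it. With olaparib the log2 ratios to DMSO of the same hour were −0.19, −1.36 and −4.32 in order of time, and with talazoparib they were −0.05, −1.71 and −6.37. At 48 h this was 19.9-fold lower with olaparib and 82.6-fold lower with talazoparib, with exact binomial 95% intervals of the log2 ratio from −4.44 to −4.19 and from −6.65 to −6.10 that cover counting error only. Among the 9151 genes at or above 8 CPM in the DMSO 48 h library, *PHGDH* had the lowest ratio to DMSO in both 48 h inhibitor libraries. At 24 h it ranked 3 of 9106 from the lowest with olaparib and 17 with talazoparib, and at 12 h 1132 and 4326 of 9065. Genes entered these ranks by their level in the control alone, which favours low ratios, so the ranks are only a description.

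*PHGDH* also differed between the DMSO libraries. From 24 to 48 h under DMSO it was 2.83-fold higher, a log2 ratio of 1.502, so part of the 48 h ratio is the level of the DMSO library. Set against their own 12 h libraries, the 48 h libraries of olaparib and talazoparib were at log2 ratios of −2.97 and −5.16. Both are smaller in size than the ratios to DMSO of the same hour, and both are past a 2-fold decrease. *PSPH*, *SHMT2*, *MTHFD2* and *SLC1A4* were also higher under DMSO at 48 h than at 12 h, at log2 ratios of 0.77, 0.32, 0.89 and 0.57. *MTHFD1*, *SHMT1* and *MTHFD1L* were at −0.06, −0.16 and −0.37. Past 2-fold, 1 of 8 members was higher at 48 h than at 12 h under DMSO, *PHGDH*, where 6.46% of all 17218 genes tested were. Against 24 h it was 2 of 8, *PHGDH* and *SLC1A4*, where 4.25% of all genes were.

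**Figure D1:**
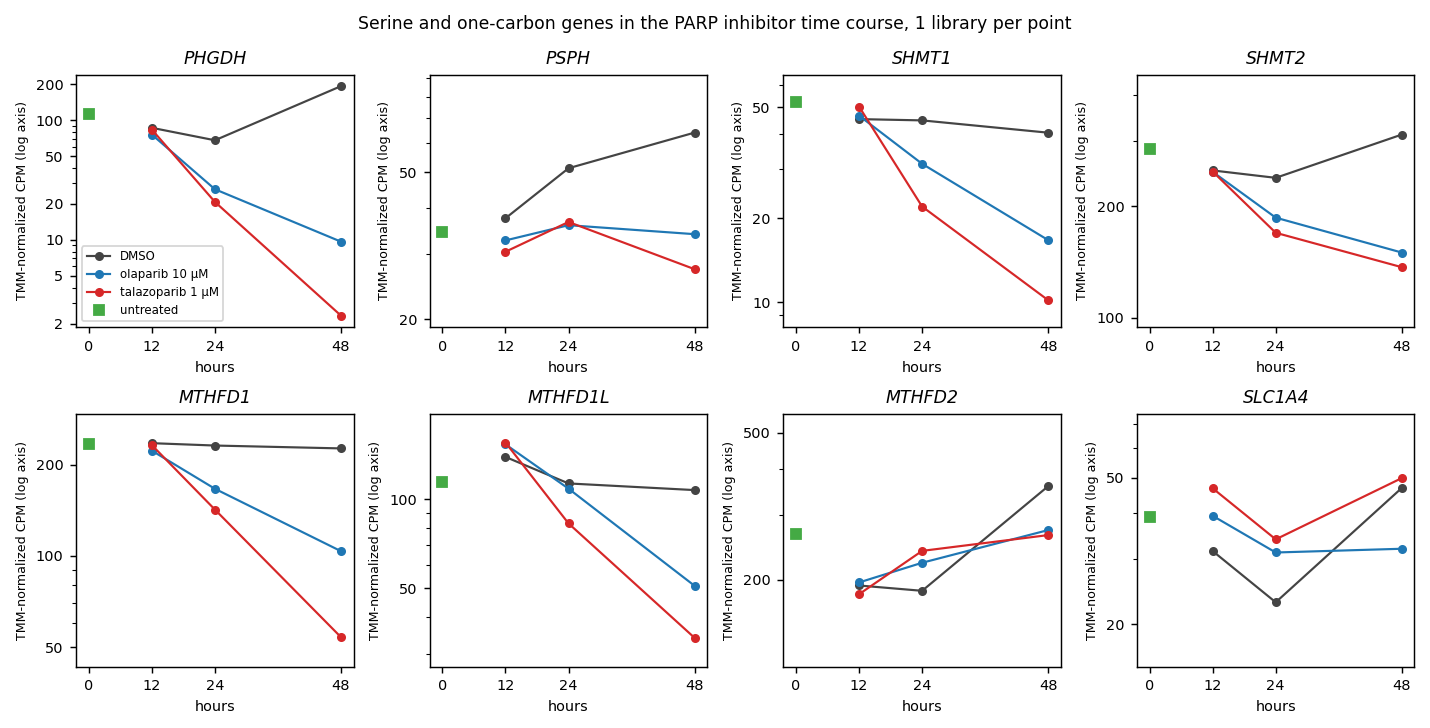
TMM-normalized CPM on a log axis, whose range differs between panels, against hours of treatment for the 8 expressed members; each point is 1 library, with lines joining DMSO, olaparib and talazoparib and a square for untreated cells. *PHGDH* ended at 9.67 CPM with olaparib and 2.33 with talazoparib against 192.6 with DMSO, while *MTHFD1* stayed between 226.6 and 235.8 in the untreated and DMSO libraries.

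The next steps of serine synthesis differed from *PHGDH*. *PSAT1*, the aminotransferase between PHGDH and PSPH, had 0 to 2 counts in every library and 0 in 11 of 16, all at or under the 3-count limit. Its 4 annotated pseudogenes, *PSAT1P1* to *PSAT1P4*, also had 0 counts. How reads that match several places were counted was not given in the sources used here, and their part in these counts was not tested. *PSPH*, the phosphatase that releases serine, was higher at each later hour under DMSO, at 37.5, 51.3 and 64.1 CPM at 12, 24 and 48 h. With olaparib it stayed at 32.7, 36.0 and 34.0 CPM and with talazoparib at 30.5, 36.7 and 27.3 CPM, near the 34.4 CPM of untreated cells. Its log2 ratio to DMSO at 48 h was −0.91 with olaparib and −1.23 with talazoparib. Against their own 12 h libraries the 48 h libraries were at log2 ratios of 0.06 with olaparib and −0.16 with talazoparib, and DMSO was at 0.77.

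Of the enzymes that split serine, the cytosolic *SHMT1* was lower than the mitochondrial *SHMT2* in its ratio at 48 h. *SHMT1* was at 45.4, 44.9 and 40.6 CPM under DMSO, at 46.7, 31.4 and 16.7 under olaparib and at 50.3, 22.1 and 10.2 under talazoparib. *SHMT2* was at 250.4, 239.1 and 313.2 CPM under DMSO, at 248.2, 186.5 and 150.0 under olaparib and at 248.6, 169.7 and 136.9 under talazoparib. For both genes the 12 h inhibitor libraries lay within the range of the untreated and DMSO libraries, and the 24 h and 48 h libraries lay below it. At 48 h the log2 ratio of *SHMT1* was −1.28 with olaparib and −1.997 with talazoparib, and that of *SHMT2* was −1.06 and −1.19.

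The folate enzymes had unlike patterns. *MTHFD1*, the cytosolic trifunctional enzyme, was at 235.8, 231.6 and 226.6 CPM under DMSO, at 222.7, 166.7 and 103.7 under olaparib and at 232.3, 142.3 and 53.9 under talazoparib. *MTHFD1L*, which makes formate in mitochondria, was at 139.0, 113.1 and 107.4 CPM under DMSO, at 153.3, 108.6 and 51.0 under olaparib and at 155.5, 82.9 and 34.0 under talazoparib. *MTHFD2*, the mitochondrial dehydrogenase, was at 192.9, 186.6 and 358.5 CPM under DMSO, at 196.6, 222.3 and 272.6 under olaparib and at 182.7, 239.4 and 264.2 under talazoparib. *MTHFD1* was nearly level across the DMSO libraries, which spanned 1.04-fold, and its 48 h inhibitor libraries were lower by log2 ratios of −1.13 and −2.07. *MTHFD2* at 24 h was above DMSO with both inhibitors, at 0.25 and 0.36, and at 48 h below it, at −0.40 and −0.44. It was higher at 48 h than at 12 h in every arm, with log2 ratios of 0.89 with DMSO, 0.47 with olaparib and 0.53 with talazoparib. *ALDH1L2*, which oxidizes the mitochondrial one-carbon unit to carbon dioxide, had 0 to 9 counts per library, and no difference in it was detectable at this depth.

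*SLC1A4*, the carrier also known as ASCT1, takes up serine and alanine, and it was the only member whose 6 inhibitor ratios were mostly above 0. It was at 31.6, 23.0 and 46.9 CPM under DMSO, at 39.4, 31.3 and 32.1 under olaparib and at 46.8, 34.0 and 49.9 under talazoparib. Of the 6 inhibitor libraries, 5 lay within the range of the untreated and DMSO libraries, from 23.0 to 46.9 CPM. The opposite-strand gene *LINC02245* covers the whole of *SLC1A4* and had 181 to 606 counts per library, against 1725 to 7085 for *SLC1A4*. The strand setting used for counting was not given in the sources used here, and its part in these values was not tested.

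Across the 8 expressed members, 4 were lower than DMSO with both inhibitors at 12 h, 6 at 24 h and 7 at 48 h. None was past 2-fold lower at 12 h, where 1.81% of all genes were with olaparib and 1.6% with talazoparib. At 24 h 1 of 8 was with olaparib, against 2.29% of all genes, and 2 of 8 with talazoparib, against 3.62%. At 48 h 5 of 8 were with olaparib, against 7.65% of all genes, and 6 of 8 with talazoparib, against 14.2%. The median log2 ratio of the members at 48 h was −1.07 with olaparib and −1.45 with talazoparib, where the median of all 17218 genes tested was 0.0026 and 0.0065. These counts come from the contrasts that chose the members, and nothing is read from them.

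As a description of the same contrasts, in the edgeR fit across the 3 time points, which takes the 3 hours as if they were replicates, 0 of the 8 members passed an adjusted p of 0.05 for the mean of both inhibitors, where 4.17% of all genes did. The count was also 0 for olaparib alone, where 0.639% of all genes passed, and for talazoparib alone, where 4% did. At an unadjusted p under 0.05 the counts were 5, 3 and 5 of 8, against 6047, 3161 and 6245 of all 17218 genes. DESeq2 called 5 of 8 for the mean of both inhibitors and 0 for olaparib, against 3474 and 669 of all genes. Without the 12 h libraries edgeR called 6 and 1, against 3768 and 934 of all genes. Without the 48 h libraries it called 2 for the mean, against 1239 of all genes. *PHGDH* had a mean log2 change of −2.59 with a standard error of 0.91, and *MTHFD2* one of −0.05 with a standard error of 0.14.

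Talazoparib and olaparib were given at unlike doses, so their difference compares the treatments as given, and for the members it is made of the ratios that chose them. At 48 h 7 of 8 members had the lower ratio with talazoparib, *SLC1A4* being the exception, and at 12 h it was 2 of 8. The share of all genes with the lower ratio was not computed. With edgeR 0 of 8 members were called over the 3 hours, and 0% of all genes tested did, with 354 genes at an unadjusted p under 0.05. Of the members, 0 of 8 had an unadjusted p under 0.05, and DESeq2 called 0 of 8. The log2 difference of *PHGDH* was −0.31 with a standard error of 0.90, that of *SHMT1* was −0.32 with 0.33, and that of *MTHFD1* was −0.31 with 0.31. The fit takes the difference as the same at every hour, and a difference at 48 h alone was not tested.

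The EVI1 knockdown gave values for the same genes without inhibitor. *PHGDH* was at 137.6 CPM with NTC at day 3, at 50.4 with shEVI1-2531 and at 2.92 with shEVI1-2532. At day 6 it was at 188.4, 41.3 and 4.01 CPM in the same order. All 4 shEVI1 libraries lay below both NTC libraries, and the shEVI1-2532 libraries lay below the shEVI1-2531 libraries. The log2 ratios to NTC of the same day were −1.45 and −2.19 with shEVI1-2531 and −5.56 on both days with shEVI1-2532, which is 47.1-fold and 47.0-fold lower. From the lowest, *PHGDH* ranked 6 of 8820 genes at or above 8 CPM in the NTC library at day 3 and 19 of 8719 at day 6 with shEVI1-2532. These ranks, too, take genes by their control level alone and are only a description. Within each day *MECOM* had the same order of NTC, shEVI1-2531 and shEVI1-2532, at log2 changes of −1.34 with shEVI1-2531 and −3.04 with shEVI1-2532.

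After *PHGDH*, *MTHFD1* had the lowest ratios with shEVI1-2532. It was at 162.8 and 157.9 CPM with NTC at days 3 and 6, at 145.5 and 144.1 with shEVI1-2531 and at 49.4 and 54.2 with shEVI1-2532. *PSPH* was at 31.8 and 22.5 CPM with NTC, at 23.5 and 15.7 with shEVI1-2531 and at 15.2 and 11.2 with shEVI1-2532. *MTHFD2* was at 225.0 and 166.3 CPM with NTC, at 224.5 and 175.2 with shEVI1-2531 and at 119.8 and 105.9 with shEVI1-2532. In each of these genes both shEVI1-2532 libraries were below both NTC libraries, and in *MTHFD2* the shEVI1-2531 libraries were at the NTC level. *SHMT1* was at 29.98 and 42.5 CPM with NTC, at 28.9 and 32.8 with shEVI1-2531 and at 21.6 and 25.6 with shEVI1-2532. *SHMT2* was at 234.2 and 270.4 CPM with NTC, at 246.6 and 244.8 with shEVI1-2531 and at 171.4 and 191.2 with shEVI1-2532. *MTHFD1L*, lower with both inhibitors at 48 h, stayed between 80.8 and 95.8 CPM in all 6 knockdown libraries.

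*SLC1A4* moved in opposite directions with the shRNAs. It was at 40.9 and 48.3 CPM with NTC at days 3 and 6, at 23.3 and 28.6 with shEVI1-2531 and at 63.3 and 75.5 with shEVI1-2532. Both shEVI1-2531 libraries lay below and both shEVI1-2532 libraries above the NTC libraries, with no overlap. The log2 ratios were −0.81 and −0.76 with shEVI1-2531 and 0.63 and 0.64 with shEVI1-2532. Over the same libraries *PHGDH* was lower with either shRNA. How many of all genes lay on opposite sides of NTC with the shRNAs, as *SLC1A4* did, was not computed.

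**Figure D2:**
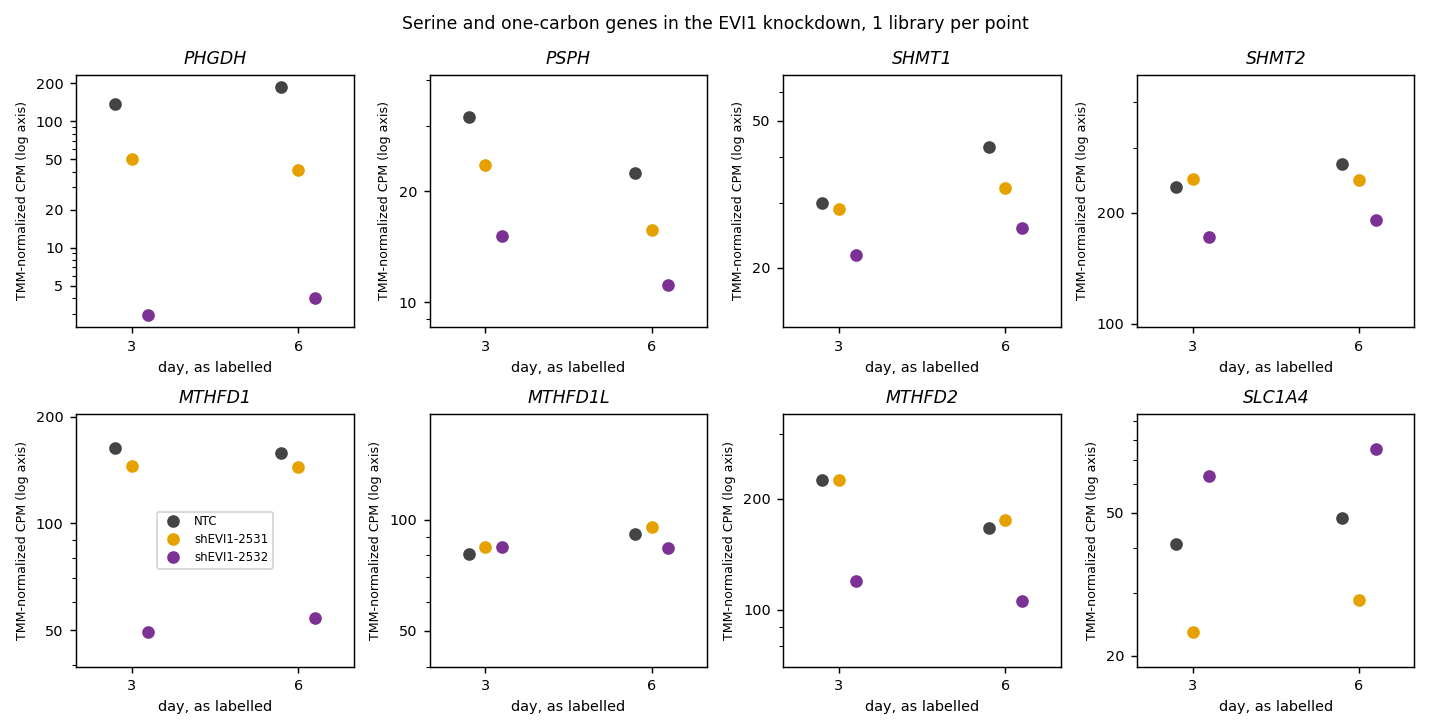
TMM-normalized CPM on a log axis, whose range differs between panels, at day 3 and day 6 for the 8 expressed members; each point is 1 library with NTC, shEVI1-2531 or shEVI1-2532. *PHGDH* stood at 2.92 and 4.01 CPM with shEVI1-2532 against 137.6 and 188.4 with NTC, and *SLC1A4* lay above NTC with shEVI1-2532 and below it with shEVI1-2531.

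With shEVI1-2532, past 2-fold lower were 3 of 8 members at day 3, where 15.3% of all 18606 genes tested were, and 3 at day 6, where 14.8% were. They were *PHGDH*, *MTHFD1* and *PSPH* on both days. With shEVI1-2531 it was *PHGDH* alone on both days, where 11.2% and 8.17% of all genes were. The edgeR fit over both days called 6 of 8 members lower with shEVI1-2532, where 19.9% of all genes were, and 1 of 8 higher, *SLC1A4*, where 21.2% were. For shEVI1-2531 2 of 8 were called lower, *PHGDH* and *SLC1A4*, where 7.9% of all genes were. As before, these contrasts chose the members, and neither the calls nor the shares are evidence about them. With both shRNAs taken as 1 group the count of members called was 0.

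The difference between the shRNAs is made of the same ratios to NTC that were in view when the members were chosen, so it is also given as a description, with no p. *PHGDH* was lower with shEVI1-2532 than with shEVI1-2531 by a log2 difference of −3.75 with a standard error of 0.20 over the days. *MTHFD1* differed by −1.48 (SE 0.13), *MTHFD2* by −0.81 (SE 0.13) and *SLC1A4* by 1.42 (SE 0.14). *PSPH* and *SHMT2* were at −0.56 and −0.44, *SHMT1* at −0.39 and *MTHFD1L* at −0.09. The edgeR fit called 5 of 8 members lower, where 12% of all genes were, and 1 higher, *SLC1A4*, where 12.2% were. The calls of *PSPH* and *SHMT2* were lost when shEVI1-2531 day 3, shEVI1-2532 day 3 or shEVI1-2532 day 6 was left out. These errors reflect how far differences between groups varied from day to day, and not the spread between cultures.

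**Figure D3:**
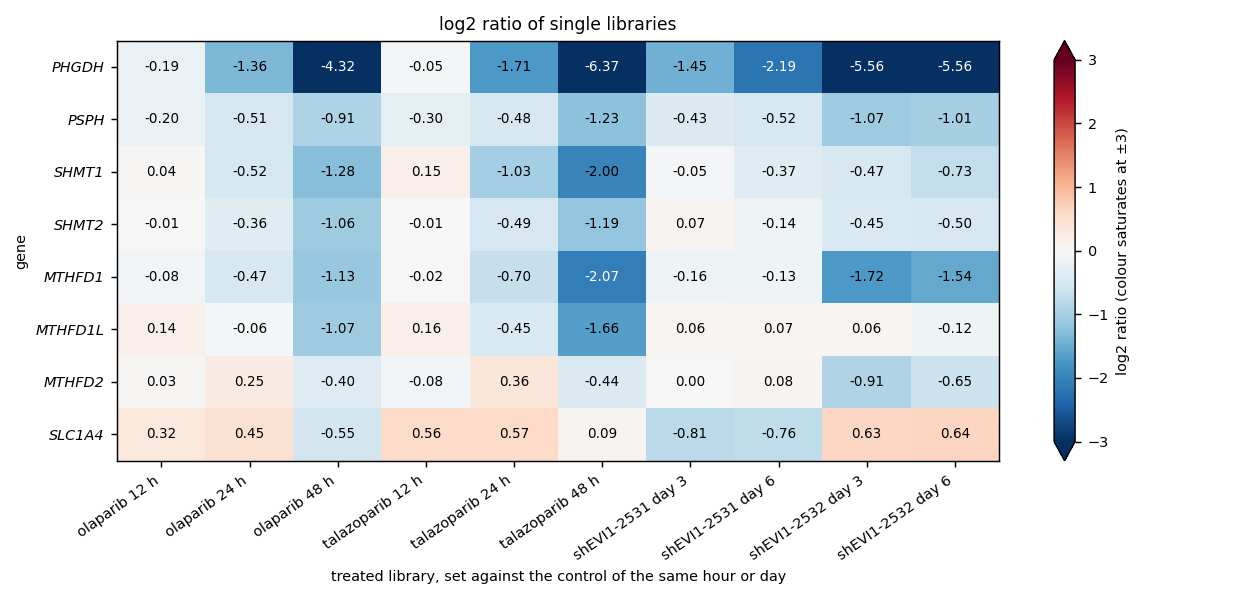
Each cell gives the log2 ratio of 1 library to the control of the same hour or day for 8 members (rows) in 10 comparisons (columns), with blue for lower and red for higher and the colour saturated at 3 in size. *PHGDH* reached −6.37 and −5.56, *MTHFD1L* was near 0 in the 4 shEVI1 columns, and *SLC1A4* had both signs.

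Set side by side, the inhibitor and the knockdown values of a member share no library, although the inhibitors share their DMSO controls and the shRNAs their NTC controls. Of the 8 members, 3 were below their control in all 10 ratios, namely *PHGDH*, *PSPH* and *MTHFD1*. Of all 80 ratios 61 were below 0 and 22 were past 2-fold lower, and the 95% counting interval held 0 in 8 of 80. The share of all genes below their control in all 10 ratios was not computed, and nothing is read from these counts. *MTHFD1L* was at −1.07 and −1.66 in the 48 h inhibitor libraries and between −0.12 and 0.07 in the knockdown libraries. *MTHFD2* was at −0.40 and −0.44 in the 48 h libraries, at −0.91 and −0.65 with shEVI1-2532 and at −0.0033 and 0.08 with shEVI1-2531.

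Ratios of mitochondrial to cytosolic transcript, each per kb of exon, changed with these differences. *MTHFD2* to *MTHFD1* was 2.19 in untreated cells, 3.05 with DMSO at 48 h, 5.07 with olaparib and 9.44 with talazoparib at 48 h. In the knockdown it was 2.66 and 2.03 with NTC at days 3 and 6, 2.97 and 2.34 with shEVI1-2531, and 4.67 and 3.76 with shEVI1-2532. *SHMT2* to *SHMT1* was 8.19 in untreated cells, 11.6 with DMSO, 13.5 with olaparib and 20.3 with talazoparib at 48 h. With the shRNAs that ratio stayed between 9.57 and 12.8, NTC included. *MTHFD1L* to *MTHFD1* was between 0.885 and 1.29 in all libraries but those of shEVI1-2532, where it was 3.19 and 2.89. *PHGDH* to *PSPH* differed most, from 0.900 with DMSO at 48 h to 0.0852 with olaparib and 0.0256 with talazoparib, and from 1.30 with NTC to 0.0578 with shEVI1-2532 at day 3.

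**Figure D4:**
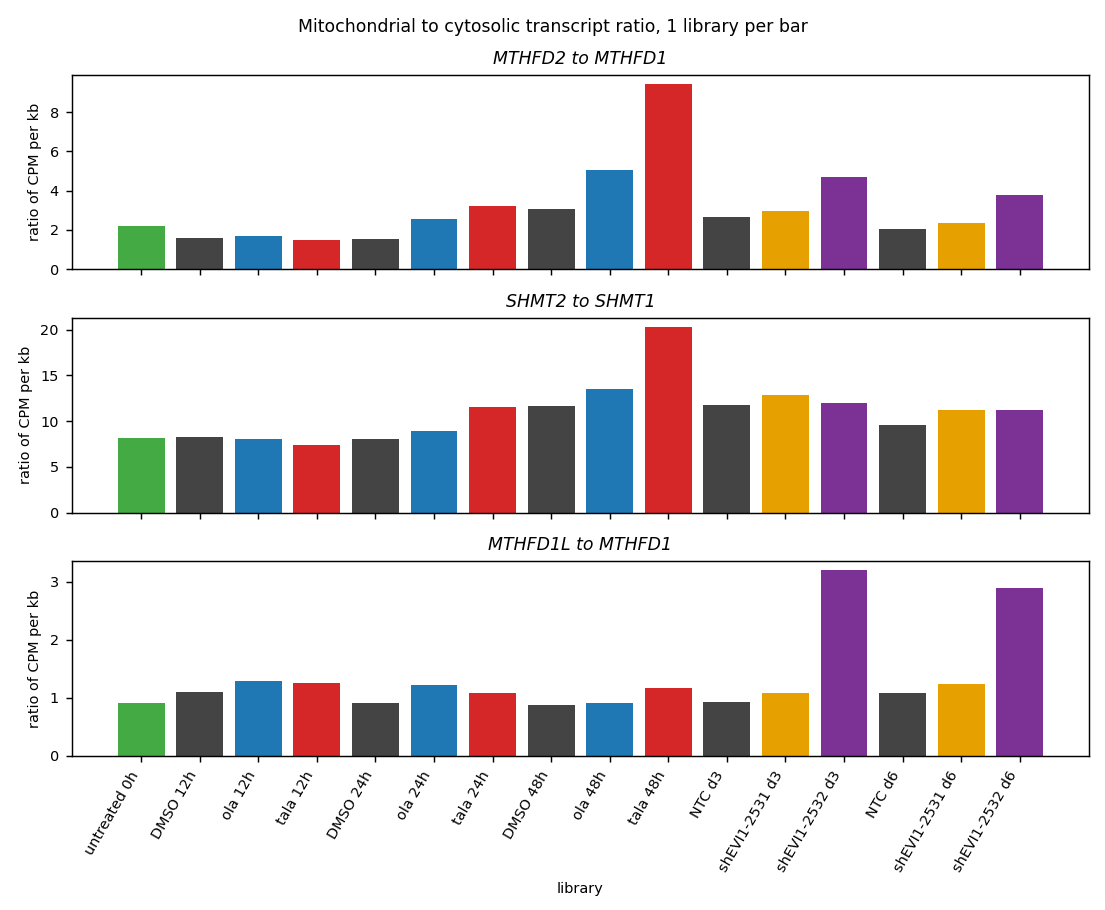
Bars give the ratio of CPM per kb of exon between a mitochondrial enzyme and its cytosolic counterpart in each of the 16 libraries, coloured by treatment, with axes that start at 0. *MTHFD2* to *MTHFD1* was highest with talazoparib at 48 h, at 9.44, and *MTHFD1L* to *MTHFD1* was highest with shEVI1-2532, at 3.19 and 2.89.

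Markers of cell type and of division moved in the same libraries. The summed CPM of 6 monocyte markers, *CD14*, *FCGR1A*, *CSF1R*, *ITGAM*, *LYZ* and *FPR1*, was 484.4 to 682.2 in the untreated and DMSO libraries, 2465 with olaparib and 4734 with talazoparib at 48 h. It was 363.6 and 435.0 with NTC, 1362 and 1311 with shEVI1-2531, and 5035 and 6317 with shEVI1-2532. At 48 h 1 of the 6 was below DMSO with each inhibitor, at log2 ratios of −0.39 and −0.33. *CSF1R* had a log2 change of −0.0028 for the mean of both inhibitors. With shEVI1-2531 2 of the 6 were below NTC at day 3 and 1 at day 6, and with shEVI1-2532 0 and 1. Another 6 genes were listed as immature myeloid markers, *CD34*, *KIT*, *MECOM*, *ERG*, *GATA2* and *CD38*, although *CD38* went the other way. Their sum was 519.9 to 793.5 in the untreated and DMSO libraries and 322.0 and 218.2 with olaparib and talazoparib at 48 h. It was 438.4 to 841.6 with NTC, 196.8 to 219.2 with shEVI1-2531 and 50.5 to 80.7 with shEVI1-2532. Not all 6 went with this sum, since only 4 were below DMSO at 48 h with each inhibitor. *GATA2* had a log2 change of 0.24 (SE 0.09) for the mean of both inhibitors and was not called. *CD38* was at 9.71 and 8.95 CPM with olaparib and talazoparib at 48 h against 0.792 with DMSO. The edgeR fit called *CD38* higher for the mean of both inhibitors by 2.15 (edgeR adjusted p = 0.0471), with shEVI1-2531 by 4.21 and with shEVI1-2532 by 3.44. Of the 6, 2 were called higher and 3 lower with shEVI1-2531, and 1 higher and 5 lower with shEVI1-2532. The 5 include *MECOM*, which the shRNAs target, so its fall was set by the design. The sum of 13 proliferation markers was 3788 to 4341 in the untreated and DMSO libraries, 1601 and 640.8 in the 48 h inhibitor libraries, 2732 to 2928 with NTC, 1964 to 2123 with shEVI1-2531 and 1134 to 1181 with shEVI1-2532. All 13 proliferation markers were called lower with shEVI1-2532 by edgeR. None of the monocyte, immature myeloid or proliferation markers was at 0 counts in any library. The summed level of 4 T cell markers was at most 12.7 CPM, that of 3 B cell markers at most 17.3 and that of 4 erythroid markers at most 0.189. The part of these shifts in the members' values was not tested.

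The genes around the members were taken from 6 lists of 73 other genes. These lists, like the members, were chosen with earlier results of these data known. The calls and p-values of their genes, in the paragraphs that follow too, are therefore not independent evidence. For the mean of both inhibitors, edgeR called 2 of the 67 tested lower and none higher, where 4.17% of all genes were called in either direction. An unadjusted p under 0.05 was found for 33 of 67, against 6047 of all 17218. Both called genes were of the methionine cycle and transsulfuration list, in which 2 of 11 fell. *MAT2A*, which makes S-adenosylmethionine, was at 318.4, 274.8 and 224.9 CPM under DMSO at 12, 24 and 48 h, at 248.9, 198.5 and 162.9 under olaparib and at 235.1, 165.6 and 147.5 under talazoparib. It fell by 0.51 on the log2 scale (SE 0.09, edgeR adjusted p = 0.0342). *AMD1*, which decarboxylates S-adenosylmethionine for polyamine synthesis, fell by 0.44 (SE 0.09, edgeR adjusted p = 0.0443). *MAT2A* was lower than DMSO with both inhibitors at each of the 3 hours. For talazoparib alone 3 of 67 were called lower, where 4% of all genes were called. They were *MAT2A*, *AMD1* and *GGH*, a hydrolase of folate polyglutamates that fell by 1.14 (SE 0.25, edgeR adjusted p = 0.049). For the mean of both inhibitors DESeq2 called 21 of these pathway genes, against 3474 of all genes. Without the 12, 24 or 48 h libraries edgeR called 23, 0 and 7 of them, against 3768, 0 and 1239 of all genes. The calls of *MAT2A* and *AMD1* were thus lost without the 24 h libraries, as were those of every other gene.

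None of the 12 genes tested of folate cycle and transport, 6 of glycine cleavage and serine import, 12 of purine and thymidylate synthesis, 15 of serine use and amino acid transport and 11 upstream regulators passed for the mean of both inhibitors. *FPGS*, which traps folate in the cell, was at 99.3 CPM with olaparib and 90.4 with talazoparib at 48 h against 94.6 with DMSO. Of the purine list *IMPDH2* was at 550.1 and 528.8 CPM against 595.9 and *PAICS* at 207.6 and 111.1 against 442.0. *SLC7A5*, a carrier of large neutral amino acids, was at 158.9 and 198.4 CPM against 469.8, and *SPTLC2*, which condenses serine into sphingolipids, was at 371.2 and 387.0 against 368.9. *DLD* was at 137.8 and 122.0 CPM against 139.6, and the serine importer *SFXN1* at 62.6 and 46.8 against 85.7.

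In the knockdown, 23 of 68 pathway genes tested were called lower with shEVI1-2532 and 8 higher, where 19.9% and 21.2% of all genes were. Of the list for purine and thymidylate synthesis 6 of 12 fell and 2 rose. *PFAS*, *PAICS* and *GMPS*, enzymes of purine synthesis, fell by 1.34, 1.19 and 1.10 on the log2 scale with edgeR adjusted p of at most 3.409e-05, while *IMPDH1* rose by 1.42. Of folate cycle and transport 3 of 12 fell, among them *GGH* by 0.63 and *FOLR2* by 0.60, and 1 rose, *MTHFS*, by 1.12. The mitochondrial serine importer homologue *SFXN2* fell by 1.73, the 1 of 7 genes called in its list, and *MTR*, methionine synthase, fell by 1.08, the 1 of 11 called in its list. Of serine use and transport 6 of 15 fell and 4 rose, among them *SLC38A5* at −1.60, *SLC7A5* at −1.02, *SERINC1* at 1.15 and *SERINC3* at 0.93. With shEVI1-2531 5 of 68 were called lower and 8 higher, where 3235 of all 18606 genes were called in either direction. Between the shRNAs 17 were lower and 4 higher with shEVI1-2532, where 12% and 12.2% of all genes were. The 13 calls with shEVI1-2531 became fewer without NTC day 3, shEVI1-2531 day 3 or NTC day 6, each a fit with a lone library in 1 group.

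Among 11 upstream regulators and stress response genes, 6 fell with shEVI1-2532 and 1 rose. *ATF4*, the inducer of amino acid synthesis genes, was at 640.5 and 583.8 CPM with NTC, at 386.2 and 327.6 with shEVI1-2531 and at 203.6 and 204.6 with shEVI1-2532. It fell by 1.58 with shEVI1-2532 (SE 0.13, edgeR adjusted p = 2.735e-06) and by 0.78 with shEVI1-2531 (SE 0.13, edgeR adjusted p = 0.00141). *ASNS*, asparagine synthetase and an ATF4 target, fell by 2.06 from a low level of 1.43 and 0.887 CPM with NTC, and *DDIT3*, a stress-induced partner of ATF4, fell by 0.97. *CHAC1*, which degrades glutathione, rose by 1.64 (edgeR adjusted p = 0.0331).

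In the inhibitor experiment *ATF4* was at 883.7 CPM in untreated cells, at 380.8, 400.7 and 742.4 under DMSO, at 323.8, 278.5 and 332.7 under olaparib and at 328.4, 249.4 and 291.4 under talazoparib. *MYC*, the other regulator of highest level, was at 303.0 CPM under DMSO, 250.9 under olaparib and 298.0 under talazoparib at 48 h. From 24 to 48 h *ATF4* was higher in both inhibitor arms while *PHGDH* was lower, and both were higher under DMSO. The mean log2 change of *ATF4* was −0.71 (SE 0.17) and missed the threshold at an edgeR adjusted p of 0.0527. Over the 10 ratios to a matched control, Pearson's r between *ATF4* and *PHGDH* was 0.96, rank 18 of 8598 genes. This is a description, since ratios share control libraries and the libraries also differ in monocyte and proliferation markers.

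The 5 genes most like *PHGDH* by the same measure, outside the set, were *GPT2*, *CPT2*, *AUNIP*, *BCAT1* and *ACOT7*, with r from 0.98 to 0.99 over 10 ratios. *GPT2*, a mitochondrial alanine aminotransferase, was at −2.17 and −2.94 in the 48 h libraries of olaparib and talazoparib and at −2.70 and −2.63 with shEVI1-2532. *BCAT1*, the cytosolic branched-chain aminotransferase, was at −2.14 and −3.01 and at −2.87 and −3.14 in the same libraries. *CPT2*, an enzyme of the fatty acid oxidation pathway, had small ratios, from −0.43 to 0.16. Of the members, *PSPH* was nearest at an r of 0.99 and *MTHFD1* next at 0.96, while *SLC1A4* was at −0.07.

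**Figure D5:**
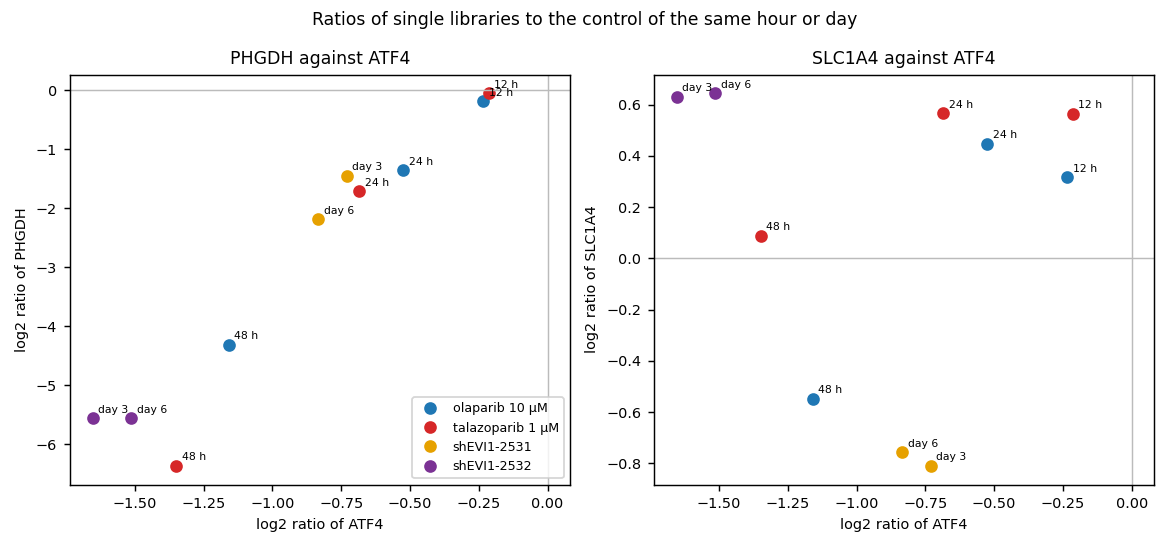
Each point is the log2 ratio of 1 library to the control of the same hour or day, with *ATF4* on the x axis and *PHGDH* (left) or *SLC1A4* (right) on the y axis, coloured by inhibitor or shRNA. *PHGDH* was mostly lower where *ATF4* was lower, from −0.05 at talazoparib 12 h to −6.37 at talazoparib 48 h, and *SLC1A4* points lay on both sides of 0.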

How the data were processed

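MUTZ-3 RNA-Seq libraries were prepared with a stranded mRNA kit and sequenced as 100 bp paired ends. Per the labels, the authors used STAR, Picard and featureCounts on hg38; versions, annotation and strand setting were not given in the sources used here. The deposited raw counts per gene were used, and the deposited TPM values were not. The groups came from the sample titles, with 1 library per condition. Deposited names of the shEVI1-2531 tables carry another shRNA number, so their identity rests on the labels.

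The members and gene lists were chosen with earlier results of these data known. Counts were fitted with edgeR 4.0.16 (limma 3.58.1, R 4.3.3), with TMM and the quasi-likelihood test, on genes with at least 10 counts in 3 of 9 inhibitor libraries (time and treatment as factors, 4 residual degrees of freedom) or 2 of 6 knockdown libraries (day and shRNA, 2 residual degrees of freedom). Benjamini-Hochberg adjustment covered all genes tested, and the threshold was 0.05. Single-library ratios have exact binomial 95% intervals, and no test. Named pathway genes were, per list, at most 4 past the threshold with the largest change, or the 2 with the highest mean CPM where none passed; genes like PHGDH had a mean log2 CPM above 3. DESeq2 1.42.0, no TMM, no filter, omission of each time point or knockdown library, and other groupings were tried. One gene that this rule names is not reported here. The fits were tested on simulated data with a log2 change of 2 in size, the same at every hour or day. Changes that grow with time, as in *PHGDH*, were not simulated. Per-kb levels used GENCODE 29 exons.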

Additional observations from a re-analysis of the deposited data

Results flagged for a closer look

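For 6 members the edgeR fit called a difference between the effects of shEVI1-2532 and shEVI1-2531. Of the 8 members tested 5 were lower and 1 higher with shEVI1-2532, where 12% and 12.2% of all genes were. The members were chosen with both effects in view, so these differences are a description and not independent evidence. The log2 difference was −3.75 for *PHGDH*, −1.48 for *MTHFD1*, −0.81 for *MTHFD2*, −0.56 for *PSPH*, −0.44 for *SHMT2* and 1.42 for *SLC1A4*. In *SLC1A4* both shEVI1-2532 libraries lay above and both shEVI1-2531 libraries below NTC.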

How the results depend on the processing

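No paired analysis was possible because each group holds 1 library and the labels give no replicate numbers. Hour and day were already factors in every fit. The counts of members called that follow describe contrasts that chose the members. The counts of genes called for the inhibitors depended most on the processing, and the cause was not tested. Members called for the mean of both inhibitors went from 0 to 5 with DESeq2 and 5 with no filter, and ranged from 0 to 6 when 1 time point was left out. For talazoparib they went from 0 to 5 and 6, with a range of 0 to 6, and for olaparib from 0 to 1 with no filter, with a range of 0 to 1. Pathway genes called went from 2 to 21 with DESeq2 and 21 with no filter for the mean (range 0 to 23), from 3 to 23, 26 and, by library total only, 1 for talazoparib (range 0 to 28), and from 0 to 1 and 1 for olaparib (range 0 to 1). With both shRNAs as 1 group, the 7 members and 31 pathway genes called with shEVI1-2532 became 0 and 0. Leaving out 1 knockdown library, chosen after seeing the data and with a lone library assumed to vary like the others, gave 5 to 7 members and 25 to 35 pathway genes for shEVI1-2532, 2 members and 3 to 17 pathway genes for shEVI1-2531, and 4 to 6 members and 16 to 26 pathway genes for their difference. Members and pathway genes called for talazoparib against olaparib stayed at 0 in all fits run. Over all genes, edgeR called 718 for the mean, 110 for olaparib and 688 for talazoparib, against 3474, 669 and 3740 with DESeq2, 3728, 977 and 3876 with no filter, and 0 of each without the 24 h libraries. Without the 12 h libraries edgeR called 3768 for the mean, 934 for olaparib and 3954 for talazoparib. Without the 48 h libraries these counts were 1239, 325 and 1183. By library total only the mean and talazoparib gave 468 and 179, and with both shRNAs as 1 group 7648 became 308. For talazoparib against olaparib 0 became 1 with DESeq2 and 5 with no filter.

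Some member effects near 0 changed sign. By library total only, the shEVI1-2531 effect was −0.13 for *MTHFD2* and −0.10 for *MTHFD1L*, and with both shRNAs as 1 group the shEVI1-2532 effect on *MTHFD1L* was 0.020. With 1 time point left out, *MTHFD2* ranged from −0.22 to 0.15 for the mean of both inhibitors, from −0.19 to 0.15 for olaparib, from −0.26 to 0.14 for talazoparib and from −0.077 to 0.032 for their difference. The olaparib effect then ranged from −0.61 to 0.054 for *MTHFD1L* and from −0.12 to 0.40 for *SLC1A4*. With 1 knockdown library left out, the shEVI1-2531 effect ranged from −0.14 to 0.082 for *SHMT2*, from −0.021 to 0.082 for *MTHFD2* and from −0.016 to 0.14 for *MTHFD1L*. For *MTHFD1L* the shEVI1-2532 effect then ranged from −0.13 to 0.071 and the difference between shRNAs from −0.18 to 0.00389. Other scalings moved a member's single-library ratio by at most 0.349 on the log2 scale. A shift of that size cannot reverse a ratio past 2-fold, but some ratios near 0 changed sign. By library total only, *SLC1A4* with talazoparib at 48 h went from above DMSO to below it. Past 2-fold lower were 25 by library total only against 22. With 1 library per condition, the spread between cultures is not known. The p-values rest on how far differences between treatments varied from hour to hour or day to day.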
